A study of Mus musculus with 20 samples.

Results

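This report describes the Atp2a2 knockout (KO) CD8 T cells labelled resting against control CD8 T cells labelled activated, a comparison of 2 libraries with 2 libraries, 4 of the 20 in the series. Both groups were chosen by their labels and every gene of the count table was used. The series holds RNA sequencing counts from B16F10 mouse melanoma cells and from OT-I/Cas9 T cells, mouse CD8 T cells that carry a transgenic receptor for an ovalbumin peptide and the Cas9 nuclease. It asked how thapsigargin (TG), a blocker of the SERCA calcium pumps, and loss of genes of that pathway change tumour and T cells. The first group carried the Atp2a2 KO, received vehicle (DMSO) for 8 hours and was labelled resting, that is, not placed on anti-CD3. The second carried the control genotype, received the same vehicle and was labelled activated, with plate-bound anti-CD3 at 2.5 µg/mL for 24 hours. Resting control and activated KO cells, both with vehicle, were the groups set beside them. All 4 groups grew in IL-2, IL-7 and IL-15 with puromycin, so resting here means cultured in cytokines without anti-CD3. The titles of the KO libraries carry the tag sgATP, a usual form for a guide RNA. Further detail of how the KO was made and how complete it was is not given in the sources used here. Nor is it given whether the 2 libraries of a group came from separate cultures.

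Atp2a2 encodes SERCA2, the pump that moves calcium from the cytosol into the endoplasmic reticulum (ER). T cell receptor signalling empties this store through IP3 receptors, STIM proteins sense the loss and open ORAI channels, and the calcium that enters drives calcineurin, NFAT and cytokine genes. A store that stays low also hinders protein folding in the ER and can start the unfolded protein response and the integrated stress response, in which ATF4 and CHOP turn on genes for amino acid supply.

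The label of the KO libraries has to be read with doubt, because their mRNA resembled that of activated cells. Ifng, the interferon gamma gene that the receptor induces, was at 7360 and 7410 CPM (counts scaled to the same library total) in the 2 KO libraries labelled resting. It was at 4710 and 4870 CPM in activated control, 7390 and 7820 in activated KO and 9.01 and 9.79 in resting control. Thus the KO libraries labelled resting lay far above the resting control and above the activated control without overlap. Nr4a1, an immediate early gene of the receptor, was at 102 and 104 CPM in them, 112 and 113 in activated control and 2.73 and 3.79 in resting control. Il2ra, which encodes CD25, was at 4600 and 4640 CPM against 5600 and 5750 in activated and 1340 and 1290 in resting control. Tcf7, a transcription factor gene of quiescent and memory cells, was at 17 and 21.1 CPM against 34.8 and 34.5 in activated and 208 and 209 in resting control. All 4 genes placed the KO libraries labelled resting nearer to activated than to resting control. Resting control cells given TG, without anti-CD3, had Ifng at 1480 and 1500 CPM and Nr4a1 at 93.8 and 98.7. Il2ra was at 1310 and 1320 CPM in them and Tcf7 at 80.5 and 85. Raised Ifng and Nr4a1 were thus also found in TG-treated cells labelled resting. Whether the labels were exchanged, the KO cells labelled resting had met a stimulus, or neither, was not tested. These cannot be told apart from these counts. The wording "labelled resting" is therefore kept for them throughout.

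The whole transcriptome gave the same placement. In a principal component analysis of the 12 T cell libraries, the 2 KO libraries labelled resting lay at 26.9 and 27.5 on the first component, which held 48.4% of the variance. Activated KO lay at 26.4 and 28.0, activated control at 30.7 and 31.7, and resting control at -102 for both. On the second component (34.5%) the KO libraries labelled resting lay at 27.1 and 27.5, activated KO at 23.9 and 26.7, and activated control at 39.0 and 39.9.

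**Figure D1:**
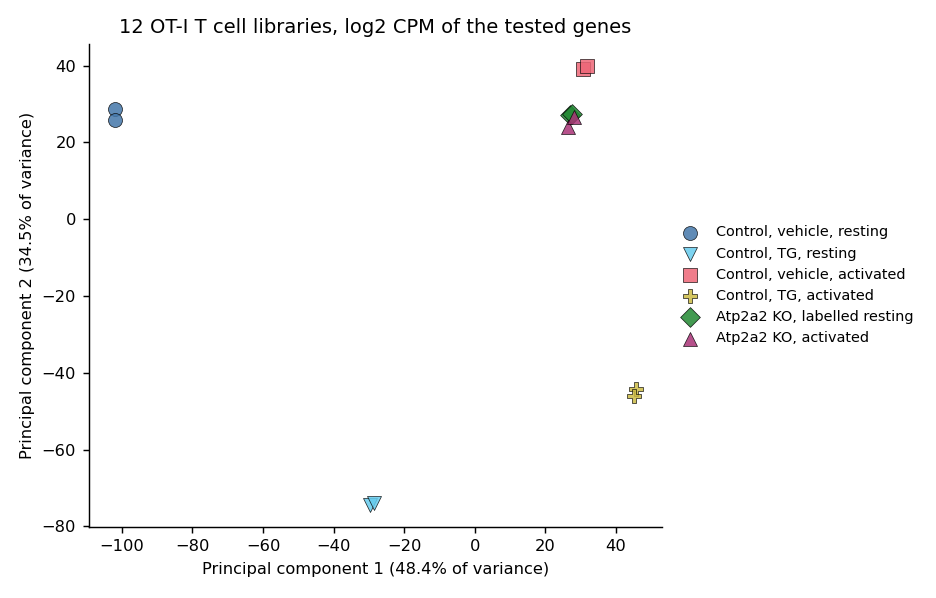
First and second principal components of log2 CPM in the 12 T cell libraries, with 1 point per library and a colour and shape per group. The 2 KO libraries labelled resting lie with the 2 activated KO libraries, near the activated control and far from the resting control at -102 on the first component.

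Library by library, the KO libraries labelled resting differed from activated KO by slightly more than replicates did in median difference. The median absolute log2 difference over genes was 0.0965 to 0.113 for the 4 pairs of a KO library labelled resting with an activated KO library, and 0.0803 to 0.0934 for the 6 pairs of replicates within T cell groups, without overlap. Against sampling noise, for which the chi-square per gene is 1, replicate pairs had 1.47 to 3.12 and the 4 KO pairs 1.95 to 3.90. By chi-square the ranges overlapped, with 3.12 for the replicate pair of activated KO. So no KO library repeated another within sampling noise. The same measure was 15 to 16.3 between the KO libraries labelled resting and activated control, and 126 to 137 between them and resting control.

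Counts of called genes followed that order. A gene was called when edgeR's quasi-likelihood test gave a Benjamini-Hochberg adjusted p below 0.05 over the 13432 tested genes. The KO libraries labelled resting differed from resting control in 9343 genes (69.6% of those tested), 4524 higher (33.7%) and 4819 lower (35.9%). They differed from activated control in 4237 (31.5%), 2014 higher (15%) and 2223 lower (16.6%). They differed from activated KO in 79 (0.588%), 16 higher (0.119%) and 63 lower (0.469%). Activated KO differed from activated control in 4986 genes (37.1%), 2357 higher (17.5%) and 2629 lower (19.6%). Resting control differed from activated control in 9990 (74.4%), 5250 higher (39.1%) and 4740 lower (35.3%). These comparisons share libraries, so each stands for itself. The difference between resting and activated labels was itself different in KO and in control cells for 8771 genes (65.3%) by an interaction term of the same fit. That term includes the KO libraries labelled resting, so the doubt about their label applies to it.

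Genes that anti-CD3 changed in TG-treated control cells, 4 libraries in neither group, gave a further reading. There 756 genes rose by 2-fold or more (5.63%) and 1353 fell by as much (10.1%). Of the 756, 597 were higher and 28 lower in the KO libraries labelled resting than in resting control. Their median log2 difference was 1.61 against -0.02 over all tested genes, of which 33.7% were higher and 35.9% lower. Against activated control 97 of the 756 were higher and 207 lower, with a median of -0.14. Over all tested genes that median was -0.01, with 15% higher and 16.6% lower. Of the 1353 that fell, 910 were lower and 86 higher than in resting control, with a median of -1.36. Against activated control 298 of the 1353 were higher and 144 lower, with a median of 0.15. So most activation genes stood on the activated side, and more of them lay slightly short of the activated control than beyond it. Against activated KO 1 of the 756 was higher and 13 lower, with a median of -0.03. Over all tested genes 0.119% were higher and 0.469% lower than in activated KO. Of the 1353, 3 were higher and 5 lower than in activated KO, also with a median of -0.03.

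**Figure D2:**
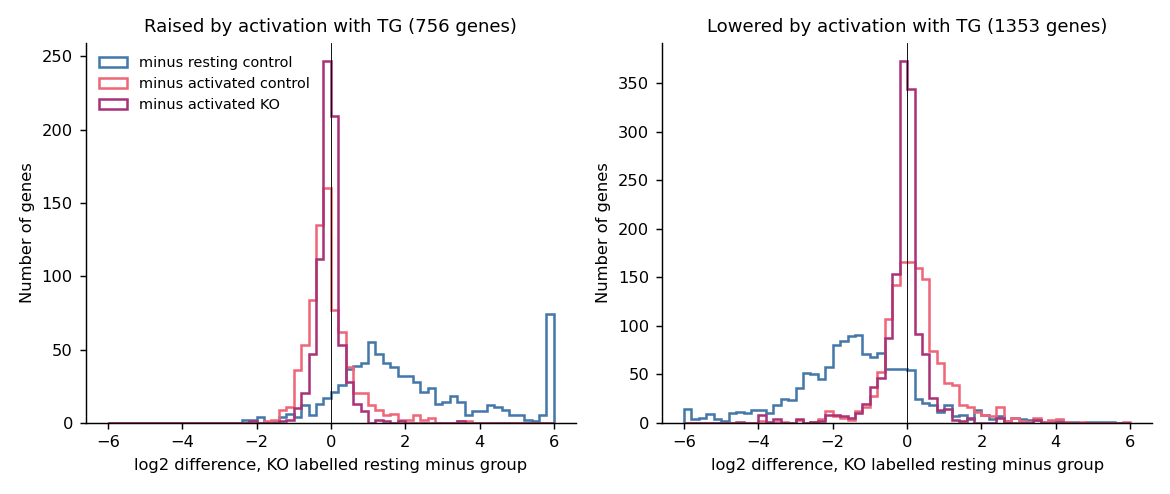
Numbers of genes by log2 difference between the KO libraries labelled resting and each of 3 other groups, for the 756 genes that activation raised (left) and the 1353 it lowered (right) in TG-treated control cells, with differences beyond 5.9 drawn at the edge. The differences from activated control and activated KO gather around 0, and those from resting control have medians of 1.61 and -1.36.

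The rest of the report asks which differences from the activated control remained. Most of the 4237 were small. Of them 2298 (54.2%) were under 1.25-fold, 1092 (25.8%) between 1.25 and 1.5-fold, 479 (11.3%) between 1.5 and 2-fold, 272 (6.42%) between 2 and 4-fold and 96 (2.27%) 4-fold or more. Among those of 2-fold or more, 286 were higher (2.13% of tested genes) and 82 lower (0.610%). The common biological coefficient of variation was 2.80%, a spread that can be technical, so the p-values measure only how these libraries vary. In bulk RNA fewer cells of a kind and less RNA per cell cannot be told apart.

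**Figure D3:**
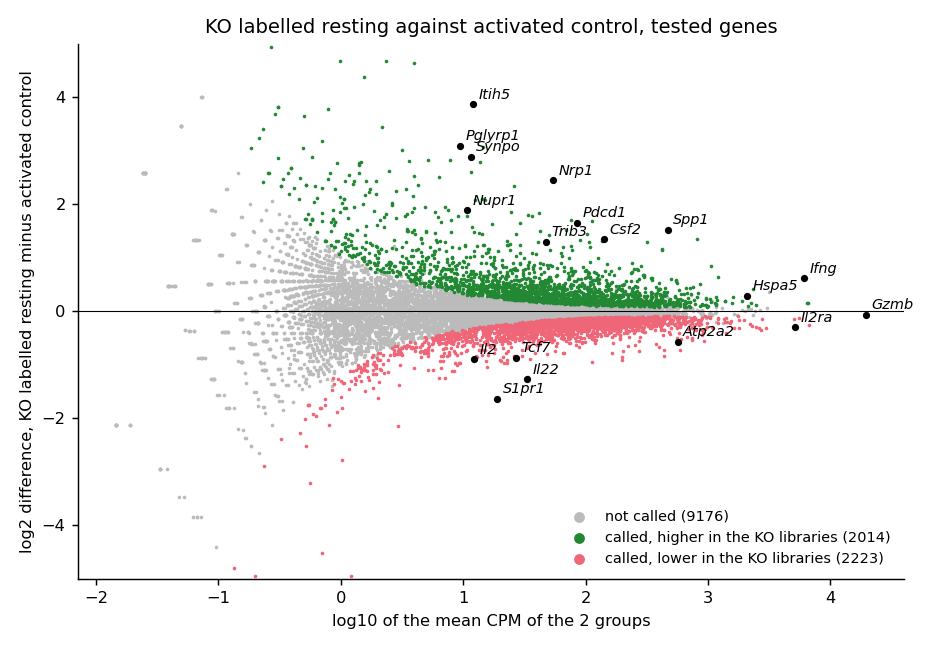
Log2 difference of the KO libraries labelled resting minus activated control (vertical) against log10 of the mean CPM of both groups (horizontal), 1 point per tested gene, leaving out 19 genes at 0 CPM in both groups and drawing 3 beyond the axis at its edge. Called genes are green (2014 higher) or red (2223 lower), and large differences are mostly upward, from Nrp1, Pdcd1 and Spp1 to Itih5.

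The pump gene itself was looked at first. Atp2a2 (chr5:122453513-122502225 on GRCm38, minus strand) was at 455 and 452 CPM in the KO libraries labelled resting and at 664 and 687 in activated control. It was at 434 and 436 CPM in activated KO and 225 and 226 in resting control. The log2 difference from activated control was -0.57 ± 0.034 (SE, edgeR adjusted p = 1.5e-20). A guide can destroy the protein without lowering the mRNA, so this value does not measure the KO. Atp2a3, the gene of the SERCA3 pump, was at 124 and 124 CPM against 78.9 and 80.9 (0.64 ± 0.047), and at 471 and 467 in resting control. Orai1, the gene of the plasma membrane calcium channel, was at 48.6 and 49.6 CPM against 27.3 and 26.3 (0.87). Atp2b4, a pump gene for calcium export, was at 158 and 145 CPM against 250 and 256 (-0.74). The sensor gene Stim1 (0.05, adjusted p = 0.57) and the release channel gene Itpr1 (0.00, adjusted p = 0.98) were not called. Of the 20 tested genes of SERCA pumps, store-operated entry and ER calcium release, 8 were higher and 4 lower. Their median log2 difference was 0.09. Over all tested genes 15% were higher and 16.6% lower than in activated control, with a median of -0.01. Each list count against activated control below is to be read beside these shares.

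**Figure D4:**
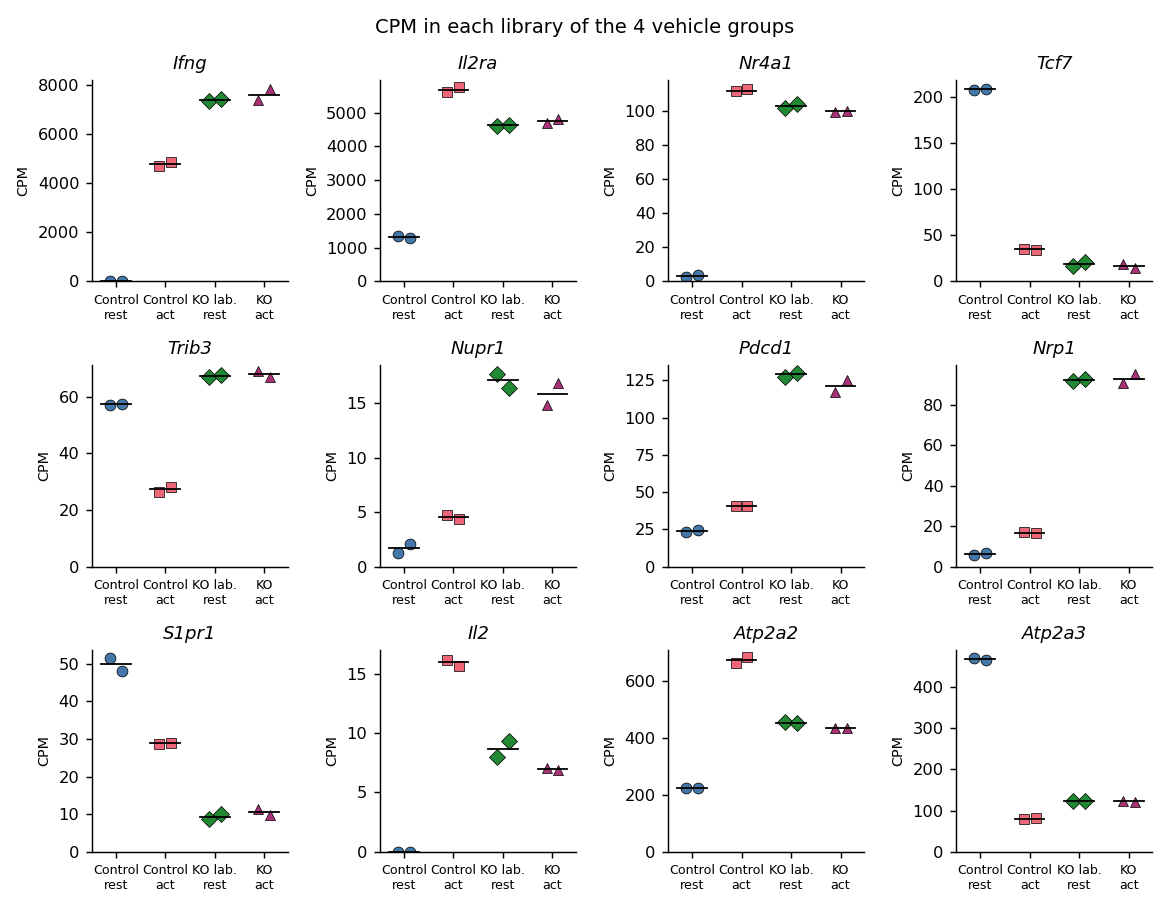
CPM of 12 genes in each library of the 4 vehicle groups, each point a library and each bar the mean of 2, on linear axes from 0. For Ifng, Il2ra, Nr4a1 and Tcf7 the KO libraries labelled resting stand nearer to activated than to resting control. They stand above activated control for Ifng, Trib3, Nupr1, Pdcd1 and Nrp1, and below it for Il2ra, Tcf7, S1pr1, Il2 and Atp2a2.

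Genes of the integrated stress response were higher almost as a block. Of 37 tested ATF4 and CHOP targets 34 were higher and 0 lower in the KO libraries labelled resting than in activated control, with a median log2 difference of 0.47. Activated KO had 34 higher and 1 lower against the same control, with a median of 0.64. Over all tested genes 17.5% were higher and 19.6% lower in activated KO than in that control. The genes not called in the KO libraries labelled resting were Cebpb (0.44), Cbs (0.20) and Ddit4 (-0.02), named after their values were seen. Between the 2 KO groups 0 of the 37 were called by edgeR, beside 0.588% of all tested genes.

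Nupr1, a small stress-induced chromatin protein gene (chr7:126623249-126630861), was at 17.7 and 16.4 CPM against 4.78 and 4.39 in activated control (1.89 ± 0.14, edgeR adjusted p = 1.1e-16). Trib3, a pseudokinase gene that CHOP and ATF4 induce (chr2:152337422-152344032), was at 67.0 and 67.6 CPM against 26.5 and 28.2 (1.30 ± 0.067, adjusted p = 2e-23). Resting control had 57.1 and 57.6 CPM of Trib3, so the activated control was the low group for this gene. Ddit3, which encodes CHOP, was at 23.4 and 21.1 CPM against 10.7 and 9.09 (1.16). Ddit3 overlaps Mars on the opposite strand, and counts of both can mix because the strand used in counting is not stated. Chac1, a glutathione-degrading enzyme gene, was at 16.9 and 15.8 CPM against 7.87 and 8.03 (1.04). Atf4 itself was at 470 and 486 CPM against 382 and 393 (0.30).

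Other members serve metabolism. Slc7a11, the cystine importer gene, was at 13.9 and 10.4 CPM against 3.09 and 4.54 (1.71). Aldh1l2, a mitochondrial folate enzyme gene, was at 13.4 and 15 against 4.02 and 4.16 (1.79), and Pck2, mitochondrial PEP carboxykinase, at 110 and 103 against 45.2 and 45.9 (1.23). Asns, asparagine synthetase, was at 308 and 304 CPM against 224 and 225 (0.45). Aldh1l2 overlaps D10Wsu102e on the opposite strand, a more abundant gene, so its counts may be shared. Each of these 4 genes was lower in resting control than in activated control. Trib3, Ddit3 and Jdp2 went the other way, with Ddit3 at 19 and 16.7 and Jdp2 at 8.36 and 10.4 CPM in resting control. Against resting control 32 of the 37 targets were higher and 3 lower in the KO libraries labelled resting. In that comparison 33.7% of all tested genes were higher and 35.9% lower.

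The promoters of 4 of these genes are shown because they hold the core TGATGNAA of the C/EBP-ATF response element, the sequence through which ATF4 with a C/EBP partner binds. The stretches below come from RefSeq promoters on GRCm38.p6, run 5′ to 3′ on the gene's strand and end at or before the start site, with matches on either strand in capitals. They belong to the 4 matching members with the largest log2 differences, at chr7:126625528-126625625 (minus strand), chr12:85599338-85599415 (plus), chr3:50443614-50443705 (minus) and chr14:55540118-55540215 (plus).
Nupr1: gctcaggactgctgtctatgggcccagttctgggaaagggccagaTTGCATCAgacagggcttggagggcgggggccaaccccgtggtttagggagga
Jdp2: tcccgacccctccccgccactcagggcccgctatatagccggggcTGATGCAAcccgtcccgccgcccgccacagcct
Slc7a11: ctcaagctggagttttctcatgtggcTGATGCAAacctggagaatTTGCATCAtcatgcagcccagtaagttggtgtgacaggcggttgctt
Pck2: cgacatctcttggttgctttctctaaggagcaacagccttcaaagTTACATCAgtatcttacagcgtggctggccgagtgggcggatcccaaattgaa
The match begins 110 bases before the start site in Nupr1, 33 in Jdp2 and 103 in Pck2, and Slc7a11 has 2 matches in opposite directions. Jdp2, a bZIP factor gene, was at 4.81 and 3.85 CPM against 1.22 and 1.36 (1.75). A RefSeq promoter was found for 29 of the 37 tested members, and 8 of the 29 (27.6%) held a match within 250 bases before the start site. Over all 27025 genes with a promoter, 1056 (3.91%) held one. The 8 were Nupr1, Jdp2, Slc7a11, Pck2, Vldlr, Chac1, Pycr1 and Asns, and all 8 were called higher, as were most members with no match. A match is a run of letters, not a measured binding site, and its absence says only that these letters are not in that window.

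The other arms of the unfolded protein response differed less. Hspa5, the gene of the ER chaperone BiP, was at 2310 and 2260 CPM in the KO libraries labelled resting against 1830 and 1900 in activated control (0.29 ± 0.032, edgeR adjusted p = 5.8e-11). Resting control had 726 and 700 CPM. Of 22 ER chaperones and oxidoreductases 12 were higher and 1 lower, with a median log2 difference of 0.13. Of 28 IRE1 and XBP1 targets 12 were higher and 3 lower (median 0.08), led by Dnajb9 at 17.6 and 17 CPM against 13.2 and 12.9 (0.41) and Xbp1 at 203 and 192 against 162 and 166 (0.27). Of 24 genes of ER-associated degradation 9 were higher and 2 lower (median 0.05), with Herpud1 at 118 and 117 CPM against 85.8 and 86.7 (0.45). The median of the integrated stress response list, 0.47, was above all 3 of these, as a description of the lists. Cytosolic and mitochondrial heat shock genes lay on the other side, with 10 of 15 lower and 1 higher (median -0.31), for example Hsp90aa1 at 783 and 772 CPM against 1000 and 1060 (-0.41). Autophagy and lysosome genes had 11 of 27 higher and 1 lower (median 0.17), with Sqstm1, the p62 adaptor gene, at 297 and 298 CPM against 176 and 179 (0.74).

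Growth and division genes were lower. All 24 tested mitosis genes were lower in the KO libraries labelled resting than in activated control, with a median log2 difference of -0.49. The kinetochore gene Cenpf was at 47.9 and 49.1 CPM against 86.3 and 79.0 (-0.77 ± 0.062, edgeR adjusted p = 2.4e-15), Kif23 at 28.3 and 29.1 against 46.8 and 51.2 (-0.77) and Mki67, the Ki-67 gene, at 316 and 278 against 475 and 433 (-0.61). Resting control was above both groups, with 831 and 829 CPM of Mki67, so the KO libraries labelled resting stood on the far side of activated control from resting control. Of 32 genes of DNA replication and nucleotide synthesis 26 were lower and 0 higher (median -0.30), with the clamp loader gene Rfc3 at 44.7 and 45.6 CPM against 69.7 and 70.8 (-0.64). The count of replication genes in activated KO against the same control was 31 lower and 0 higher. Over all tested genes 19.6% were lower and 17.5% higher there.

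Of 30 ribosome biogenesis and MYC-linked genes 29 were lower and 0 higher (median -0.22), with nucleolin, Ncl, at 2650 and 2640 CPM against 3190 and 3380 (-0.31). Myc was at 419 and 423 CPM against 569 and 556 (-0.42 ± 0.037). The ribosomal protein genes went the other way in small amounts, 18 of 31 higher and 0 lower (median 0.12), for example Rps20 at 628 and 711 CPM against 535 and 539 (0.32). These are highly copied genes, and reads that map to several places are not counted by HTSeq. Cholesterol synthesis genes had 11 of 23 lower and 0 higher (median -0.12), such as Hmgcs1 at 586 and 597 CPM against 677 and 705 (-0.22). Hk2, the hexokinase gene induced on activation, was at 577 and 558 CPM against 787 and 785 (-0.47).

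**Figure D5:**
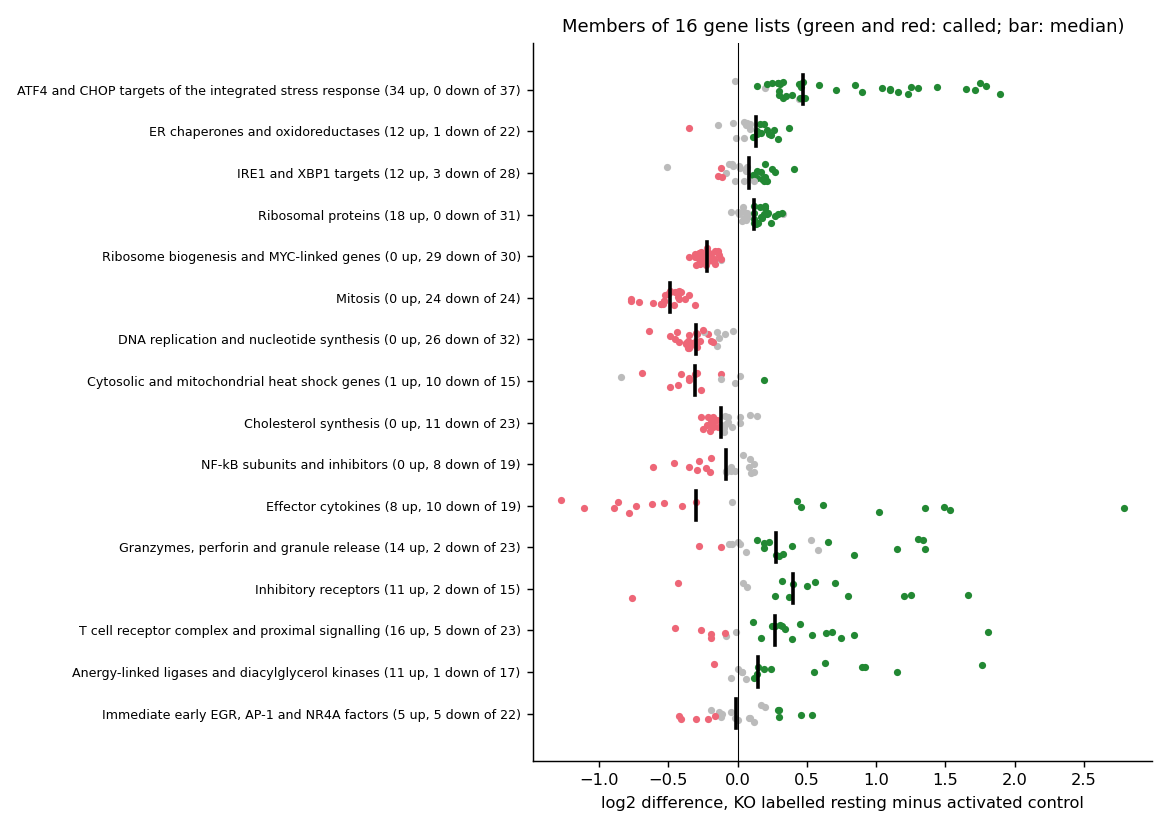
Log2 difference of the KO libraries labelled resting minus activated control for each tested member of 16 gene lists, with called members green (higher) or red (lower), others grey, and the list median as a bar. The integrated stress response list (34 of 37 higher) and the mitosis list (24 of 24 lower) lie almost wholly on 1 side, while effector cytokines lie on both.

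Effector cytokine genes split. Of 19 tested 8 were higher and 10 lower, and only Tgfb1 (-0.04) was not called. On the higher side, Il5, a type 2 cytokine gene, was at 24.6 and 23.6 CPM against 3.85 and 3.03 in activated control (2.79 ± 0.14, edgeR adjusted p = 5.6e-24). Spp1, osteopontin (chr5:104435118-104441050), was at 711 and 689 CPM against 241 and 243 (1.53 ± 0.041, adjusted p = 9.5e-30). Csf2, which encodes GM-CSF, was at 203 and 208 against 81.0 and 80.0 (1.35), and Csf1 at 17.2 and 19.2 against 6.41 and 6.51 (1.49). Csf1 was at 17 and 20.1 CPM in resting control, so the activated control was the low group. Ifng (chr10:118441046-118445892), given above, differed by 0.62 ± 0.031 (adjusted p = 2.8e-24). Il4 (1.02) and Il13 (0.43), the other type 2 genes of the list, were also higher, as was Ltb (0.46).

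On the lower side, Il22 (chr10:118204942-118210047), a cytokine that acts on epithelium, was at 19.7 and 19.3 CPM against 49.7 and 44.1 (-1.27 ± 0.088, edgeR adjusted p = 8e-18). Il2, the T cell growth factor, was at 7.98 and 9.33 against 16.2 and 15.7 (-0.89), and Il21 at 5.29 and 5.27 against 10.9 and 12 (-1.11). None of the 3 had a count in resting control, so the KO libraries labelled resting stood between the 2 controls for them. Il10, a suppressive cytokine gene, was at 200 and 198 CPM against 308 and 304 (-0.62), Tnf at 89.7 and 96.3 against 117 and 111 (-0.30), and Lta differed by -0.86. Among chemokines, Xcl1, which attracts cross-presenting dendritic cells, was at 767 and 745 CPM against 1110 and 1120 (-0.56), while Ccl1 was at 131 and 136 against 83.1 and 79.7 (0.71).

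Cytotoxic granule genes were mostly higher, though not granzyme B. Of 23 tested 14 were higher and 2 lower, with a median log2 difference of 0.28. Prf1, perforin, was at 1490 in both KO libraries labelled resting and at 947 and 950 CPM in activated control (0.65 ± 0.033, edgeR adjusted p = 1.5e-23). Gzmc was at 1370 and 1330 CPM against 755 and 752 (0.84), Gzmd at 1190 and 1150 against 448 and 467 (1.35), and Gzme at 576 and 586 against 262 and 261 (1.15). Gzmd, Gzme, Gzmf and Gzmg are close copies and can share reads, so their single values are uncertain. Gzmb was at 19400 and 19100 CPM against 19900 and 20400 (-0.06, adjusted p = 0.084), and Gzma at 1350 and 1330 against 1430 and 1480 (-0.12). The costimulatory receptor gene Tnfrsf9, or 4-1BB, was at 2440 and 2440 CPM against 2400 and 2440 (0.01, adjusted p = 0.78).

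Genes of inhibitory receptors were higher than in activated control in 11 of 15 and lower in 2, with a median log2 difference of 0.40. Against resting control 7 were higher and 7 lower (median -0.32), beside 33.7% and 35.9% over all tested genes. Pdcd1, which encodes PD-1 (chr1:94038305-94052553), was at 127 and 130 CPM against 40.8 and 40.7 (1.66 ± 0.054, edgeR adjusted p = 2.6e-32), and at 23.1 and 24.3 in resting control. Havcr2, which encodes TIM-3, was at 331 and 341 CPM against 193 and 194 (0.80), and Lag3 at 498 and 497 against 379 and 389 (0.37). The members that were lower were Btla, at 5.77 and 5.68 CPM against 9.85 and 9.54 (-0.76), and Cd200 (-0.43). Anergy-linked ligases and diacylglycerol kinases had 11 of 17 higher and 1 lower (median 0.15), with Cblb, a ubiquitin ligase gene that restrains receptor signalling, at 416 and 409 CPM against 266 and 269 (0.63). DUSP and Sprouty feedback genes had 6 of 14 higher and 1 lower (median 0.21), among them Spry1 at 29.7 and 27.5 CPM against 18.6 and 15.7 (0.73).

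The receptor machinery was also mostly higher than in activated control, and mostly lower than in resting control. Of 23 genes of the T cell receptor complex and proximal signalling, 16 were higher and 5 lower than in activated control, with a median log2 difference of 0.27. Against resting control 5 were higher and 16 lower, with a median of -0.43, beside 33.7% higher and 35.9% lower over all tested genes. Txk, a TEC-family kinase gene, was at 54.0 and 50.6 CPM against 13.9 and 16.1 (1.81 ± 0.083, edgeR adjusted p = 1.2e-25). Cd28 was at 361 and 365 CPM against 201 and 204 (0.84) and Zap70, the kinase bound to the receptor, at 173 and 191 against 107 and 110 (0.75). Cd3e and Cd8a, which mark the cells as CD8 T cells, were at 291 and 296 against 239 and 233 CPM (0.31) and at 747 and 746 against 617 and 634 CPM (0.25). Resting control had 70.2 and 71.0 CPM of Txk, 245 and 261 of Zap70 and 615 and 629 of Cd3e, so for these 3 genes the KO libraries labelled resting lay between the controls. Immediate early factors showed no common direction, with 5 of 22 higher and 5 lower (median -0.01), beside 15% and 16.6% over all tested genes. Nr4a1 (-0.12, adjusted p = 0.052) was not called, Nr4a3 was at 452 and 483 CPM against 331 and 312 (0.54), and Egr3 at 27.8 and 30.7 against 36.3 and 35.4 (-0.30). Rcan1, a calcineurin-NFAT target, was at 10.9 and 8.52 CPM against 7.75 and 8.48 (0.27, adjusted p = 0.16). Of 19 NF-kB subunits and inhibitors 8 were lower and 0 higher (median -0.08), with Traf1 at 783 and 780 CPM against 988 and 1000 (-0.35).

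Genes of circulation and memory moved in both directions. S1pr1, the receptor that lets T cells leave lymph nodes (chr3:115710433-115715072), was at 8.66 and 9.94 CPM against 28.7 and 28.9 in activated and 51.5 and 48 in resting control (-1.63 ± 0.11, edgeR adjusted p = 3.7e-18). Ccr7, a lymph node homing receptor gene, was at 308 and 306 CPM against 482 and 489 (-0.66), and Cxcr4 at 10.7 and 9.94 against 21.3 and 21.2 (-1.04). For S1pr1, Cxcr4 and Tcf7 the KO libraries labelled resting were the farther of these groups from resting control. Cxcr6, a tissue homing receptor gene, was at 192 and 198 CPM against 75.0 and 81.8 (1.32). It overlaps Fyco1 on the opposite strand. Of 30 quiescence and homing genes 10 were higher and 14 lower (median -0.09).

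Among 32 effector and memory transcription factors 12 were higher and 15 lower (median -0.02). Zfp683, which encodes Hobit, a factor of tissue-resident cells, was at 9.91 and 11.7 CPM against 1.92 and 1.82 (2.51), and at 10.5 and 8.68 in resting control. Gata3 was at 32.6 and 33.7 against 14.2 and 16.2 (1.14), with resting control at 33.6 and 36.7, and Tbx21, T-bet, at 68.6 and 74.7 against 50.7 and 49.1 (0.52). Irf4, induced in step with receptor signal strength, was at 754 and 765 against 1040 and 1040 (-0.45). Batf (-0.01, adjusted p = 0.95) was not called.

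Among called genes with 10 CPM or more in the higher group and no overlap between libraries, the largest differences were led by Itih5, which encodes a heavy chain of an inter-alpha-trypsin inhibitor (chr2:10153571-10256529). It was at 22.2 and 22.5 CPM in the KO libraries labelled resting and at 0.933 and 2.27 in activated control (3.87 ± 0.18, edgeR adjusted p = 5.1e-25). Activated KO had 23.8 and 24.2 CPM of Itih5, and resting control 8.28 and 8.59. Nrp1, neuropilin-1 (chr8:128358604-128503363), a semaphorin and VEGF co-receptor, had the highest level of the 12 leading higher genes, at 92.0 and 92.9 CPM against 17.1 and 16.5 (2.45 ± 0.066, adjusted p = 7e-36). Pglyrp1, a peptidoglycan recognition protein gene, was at 16.8 and 16.7 CPM against 1.87 and 2.04 (3.10), and the actin-binding protein gene Synpo at 19.8 and 21.0 against 2.91 and 2.50 (2.89). The steroid-metabolising enzyme gene Akr1c18 was at 41.9 and 45.3 CPM against 8.69 and 8.33 (2.35). The other leading higher genes were Stard9 (3.07), Scml4 (2.84), Il5, Avil (2.61), Zfp683, Chst2 (2.10) and Trpm6 (2.09). Stard9 overlaps Cdan1 and Avil overlaps Tsfm on the opposite strand, so their counts may be shared.

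Under the same limits the largest lower differences were smaller in size. After S1pr1 (-1.63) came Il22 (-1.27) and Foxf1 (-1.24). Timp1, a metalloproteinase inhibitor gene that overlaps Syn1 on the other strand, was at 14.6 in both KO libraries labelled resting and at 28.2 and 29.4 CPM in activated control (-0.97). Igfbp4 (-1.12), Il21, Cxcr4, Ermn (-1.01), Sox5os3 (-0.97), Plxna3 (-0.97) and Selp (-0.97) were also among the 12. Below 10 CPM the differences were larger, as for Cxcl10, a chemokine gene, at 1.06 and 1.12 CPM against 5.60 and 3.86 (-2.14), and Tyrp1, a melanoma marker (-5.29). Sox5os3 overlaps Sox5 on the opposite strand.

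Death and survival genes both held more higher than lower members. Of 19 pro-apoptotic genes 8 were higher and 0 lower than in activated control, with a median log2 difference of 0.10. Against resting control 3 of the 19 were higher and 11 lower (median -0.30), beside 33.7% and 35.9% over all tested genes. Of 11 survival genes 5 were higher and 3 lower than in activated control (median 0.11). Bcl2l11, which encodes BIM, was at 59.7 and 56.3 CPM against 23.3 and 23.9 (1.30 ± 0.068, edgeR adjusted p = 3.8e-23) and at 194 and 193 in resting control. The survival gene Bcl2 was higher too, at 461 and 459 CPM against 340 and 346 (0.42). Of 20 p53 targets 11 were higher and 1 lower (median 0.12), with Btg2, an antiproliferative gene, at 104 and 101 CPM against 58.3 and 63.8 (0.75).

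Activated KO, set against the same activated control libraries, had log2 differences of 1.32 for Trib3, 1.76 for Nupr1, 1.56 for Pdcd1, 2.46 for Nrp1, 3.97 for Itih5, -0.65 for Cenpf, -1.44 for S1pr1 and -1.19 for Il2. The KO libraries labelled resting had 1.30, 1.89, 1.66, 2.45, 3.87, -0.77, -1.63 and -0.89 in the same order. Both comparisons share the control libraries. For these 8 genes the difference between the 2 KO groups was not called, with values between -0.19 for S1pr1 and 0.31 for Il2.

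The 79 genes that did differ between the KO libraries labelled resting and activated KO were few and changed little, and 53 of them were also called against activated control. No called gene was higher by 2-fold or more, and 1, the gene model Gm37660, was lower by as much, at under 1 CPM in every library. Areg, an EGF-family ligand gene, was at 3.56 and 3.04 CPM in the KO libraries labelled resting and 6.31 and 6.54 in activated KO (-0.95, edgeR adjusted p = 0.011). Sgk1, a kinase gene, was at 25.7 and 26.7 CPM against 36.5 and 34.9 (-0.45 ± 0.08, adjusted p = 0.00066), with activated control at 12 and 12.1. Ctla4, an inhibitory receptor gene, was at 659 and 662 CPM against 778 and 795 (-0.25, adjusted p = 9.7e-06), and between activated KO and activated control, at 501 and 499. Il10 was at 200 and 198 CPM against 234 and 252 (-0.28, adjusted p = 1.6e-05). On the higher side stood Ccl1, at 131 and 136 CPM against 101 and 101 (0.40, adjusted p = 3.2e-07), Btg2, at 104 and 101 against 75.3 and 82.1 (0.38), and Arc, at 10.3 and 13 against 7.42 and 7.21 (0.66). Of 20 hypoxia targets 6 were lower and 0 higher, with a median of -0.13 against 0.00 over all tested genes. Of all tested genes 0.469% were lower and 0.119% higher. Of the 7 tested mitochondrially encoded genes 3 were lower and 0 higher in the same comparison (median -0.19), and their sum was 13900 to 14900 CPM against 16500 to 16700, whose part in these differences was not tested. Egln3, an oxygen-sensing hydroxylase gene, was at 276 and 278 CPM against 325 and 338 (-0.26). The glucose transporter gene Slc2a3 was at 478 and 482 against 535 and 545 (-0.17). The genes named between the KO groups were chosen after their values were seen. The count of 79 rests on single libraries. It was 38 and 15 without KO labelled resting replicates 1 and 2, and 23 and 191 without activated KO replicates 1 and 2.

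Other measures moved with the groups. Depth was 10542364 and 9985311 counts in the KO libraries labelled resting, 17462770 and 13521582 in activated control, and between 11028101 and 17391798 in activated KO and resting control. Melanoma transcripts were present at trace level in control T cells, with Tyrp1 at 1.87 and 2.88 CPM in activated control and at 0.0962 and 0 in the KO libraries labelled resting. Tyrp1 was at 0 in both activated KO libraries, at 2.09 and 2.4 CPM in resting control and between 1.72 and 2.63 in TG-treated control. The Tyrp1 trace thus went with genotype, so whatever set it apart cannot be separated from the KO. The 10 melanoma markers summed to 5.83 and 8.78 CPM in activated control and 0.406 to 1.35 in the KO libraries labelled resting, where Mlana, Tyr, Sox10, Mlph and Slc45a2 were at 0. The 9 NK cell markers summed to 228 to 238 CPM against 129 to 131, with the defining NK receptor gene Ncr1 at 0 in both groups. Their sum was 414 to 431 CPM in resting control and 229 to 230 in activated KO, so activated control was the low group. The 5 tested NK markers were all called higher than in activated control. Klrk1, a receptor gene that CD8 T cells also express, was at 119 and 124 CPM against 67.6 and 70.0 (0.83). The 9 B cell markers summed to 37.0 to 38.1 CPM against 29.0 to 32.0, with 5 and 4 of them at 0, Ms4a1 among these in both groups. The 12 myeloid markers summed to 4.36 to 5.39 CPM against 3.56 to 3.67, with 6 and 5 at 0, among them Lyz2 in both. The 11 dendritic cell and class II markers summed to 80.5 to 82.4 CPM against 84.3 to 88.8, with Siglech and Clec9a at 0 in both. The 7 CD4 and regulatory T cell markers summed to 219 to 221 against 213 to 221. In resting control the B cell, myeloid, dendritic and CD4 sums were 138 to 147, 19.1 to 20.8, 30.9 to 31.9 and 389 to 390 CPM. Haemoglobin and other erythroid genes summed to at most 0.0962 CPM in any library of KO labelled resting or activated control. The 13 mitochondrially encoded mRNAs, 6 of them at 0 in every library, summed to 13900 to 14900 CPM against 16400 to 16800, and 6 of its 7 tested genes were called lower. The part of these differences in the results above was not tested.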

How the data were processed

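Gene counts of total RNA were deposited by the authors as 1 table of 20 libraries. The submitters' processing notes name STAR 2.6.0c, HTSeq without a version, and the build GRCm38/mm10. The strand, annotation and filters the authors used are not given in the sources used here. Of 46603 gene identifiers, 46005 took a symbol from GENCODE M21; the other 598 held 0.0759% of the counts and stayed in the fit under their identifiers. Counts were fitted in R 4.3.3 with edgeR 4.0.16 (trimmed mean of M values, filterByExpr, robust quasi-likelihood fit) over the 12 T cell libraries in 6 groups, which left 13432 genes and 6 residual degrees of freedom. P-values were adjusted by Benjamini-Hochberg over all tested genes. CPM use the same scaling, and SE is the log2 difference divided by the square root of F. The pipeline was tested on simulated data.

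The comparison and 49 gene lists (932 genes, 5 to 39 each) were chosen with earlier results of these data known, so lists are described by counts and medians without a test. 3 list symbols matched no row. Named genes are the 12 called genes with the largest difference in each direction (no overlap between libraries, 10 CPM or more in the higher group, no gene models), up to 5 called members per list, and a panel; 1 leading lower gene is not reported here. Genes named for 1 list but outside this rule are given to show members that were not called or differed less. Replicate numbers were not treated as pairs in the main fit. With only 2 libraries per group, pairing can be neither shown nor excluded. Alternatives were DESeq2 1.42.0, other scaling, filters, sets of libraries, a replicate term, a test against 1.5-fold and each library left out.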

Additional observations from a re-analysis of the deposited data

Results flagged for a closer look

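For 8771 genes the difference between libraries labelled resting and activated was itself different in Atp2a2 KO and in control T cells, by an interaction term in edgeR's quasi-likelihood fit (adjusted p below 0.05). In control cells 9990 genes were called between the resting and activated labels, and in KO cells 79. The term includes the KO libraries labelled resting, whose label is in doubt. It therefore does not show how the KO changed the response to anti-CD3. Outliers within a group could not be looked for, since each group has 2 libraries.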

How the results depend on the processing

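With DESeq2 the comparison of KO labelled resting with activated control called 2684 genes in place of 4237, that of KO labelled resting with activated KO called 35 in place of 79, and that of activated KO with activated control 3156 in place of 4986. A test against a 1.5-fold difference called 260 genes in the first of these, 223 higher and 37 lower. With no filter on low counts 184 genes differed between the KO groups, and of the 4525 called against activated control 31.1% were higher, against 47.5% with the filter. Leaving out 1 library gave 3143 to 3328 genes against activated control and 15 to 191 between the KO groups; the lone library of a group is then assumed to vary like the others. When activation genes were defined at 4-fold, the median log2 difference from activated control was -0.20 for raised and 0.23 for lowered genes. With a replicate block, 4200 genes were called against activated control and 65 between the KO groups, and no named gene changed its call; deviations of same-numbered libraries over 8904 genes were correlated at 0.01 for KO labelled resting with activated control, 0.11 for the KO groups and 0.18 for activated KO with activated control. Without the KO libraries labelled resting, 4947 genes were called for activated KO and 9970 for resting control, each against activated control. No named gene reversed. Of 251 called named genes, 209 kept their call under every alternative other than the 1.5-fold test. The integrated stress response list had 33 or 34 members higher under these alternatives and the mitosis list 23 or 24 lower. For IRE1 and XBP1 targets the number higher ranged from 6 to 13, and for autophagy and lysosome genes from 5 to 12. Depth, from 9985311 counts in the shallowest KO library, limits genes of a few CPM, and with 2 libraries a group the p-values do not cover separate cultures. Contrasts of the resting and activated labels between genotypes, and list counts under alternatives, were added after seeing the data.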

Other observations

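Other gene groups held both higher and lower members between the KO libraries labelled resting and activated control. In serine synthesis and one-carbon folate metabolism 8 of 17 genes were higher and 6 lower, with a median log2 difference of 0.04, beside 15% higher and 16.6% lower over all tested genes. The higher members included the serine synthesis genes Psph, at 90.6 and 87.3 CPM against 53.1 and 55.6 (0.71, edgeR adjusted p = 2.2e-16), and Phgdh (0.33). Psph overlaps Cct6a on the opposite strand, a more abundant gene, so its counts may be shared. The lower members included Gart, a purine synthesis gene, at 312 in both KO libraries labelled resting against 386 and 383 CPM (-0.30), and Mthfd1 (-0.30) and Tyms (-0.33), which supply nucleotides. Aminoacyl-tRNA synthetases divided likewise, with Sars at 393 and 369 CPM against 298 in both control libraries (0.36) and Kars at 354 and 337 against 398 and 404 (-0.21).

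Among 20 costimulatory TNF superfamily genes 4 were higher and 3 lower, shares near those over all tested genes. Cd27, a costimulatory receptor gene that overlaps Vamp1 on the opposite strand, was at 97.0 and 98.9 CPM against 50.7 and 47.7 (0.99, edgeR adjusted p = 1.7e-22), and Tnfsf8, the CD30 ligand gene, at 150 and 154 against 93.1 and 90.6 (0.72). Its receptor gene Tnfrsf8 was at 448 and 441 CPM against 726 and 737 (-0.72). Of 20 G1 cyclin and CDK inhibitor genes 10 were lower and 4 higher (median -0.18). Ccnd2, cyclin D2, was at 2250 and 2390 CPM against 2840 and 2900 (-0.31), and Cdkn1b, which encodes the cell cycle inhibitor p27, at 56.7 and 57.3 against 41.1 and 41.6 (0.46). Of 28 interferon-stimulated genes 9 were lower and 6 higher, with Gbp2 at 32.4 and 30.3 CPM against 48.4 and 47.8 (-0.62) and Mx1 at 27.7 and 26.3 against 18.9 and 15.7 (0.62). Ifng itself was higher in the same libraries (0.62).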
